A study of Mus musculus with 16 samples.

Results

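The 7 genes described here encode the small GTPases Arl4a, Arl4c and Arl4d, the cytohesins Cyth1, Cyth2 and Cyth3, and the GTPase Arf6. Arl4a was chosen by its own values in these data, because its transcript was lower in every fat-1 mouse than in every wild type (WT) mouse, and the other 6 genes were chosen as its paralogues and as the cytohesin and Arf6 pathway downstream of it. All 7 genes were found among the 21965 genes of the deposited count table, and all 7 passed the filter on low counts that left 13811 genes for testing. The genotype difference of Arl4a is therefore given as a description without a test, and tests are given for what its choice did not use.

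RNA sequencing was performed on the terminal ileum of 16 male mice on a C57BL/6 background. Wild type littermates and mice heterozygous for fat-1 (Fat1+/- in the labels), a transgene from C. elegans that encodes an n3 fatty acid desaturase and is expressed in all tissues, were fed a liquid diet for 6 weeks from an age of 8 to 10 weeks. EtOH mice received ethanol in rising steps up to 6%, which was held for 3 weeks, and pair-fed (PF) mice received an isocaloric control diet with maltose dextrin. Each mouse gave 1 library: the PF diet was fed to 4 WT and 4 fat-1 mice, and EtOH to 3 WT and 5 fat-1 mice. The transgene has no row in the mouse gene table, so the genotype labels were not checked against it here.

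Arl4 proteins are Arf-like GTPases that sit at the plasma membrane and recruit cytohesins, which bind them through a pleckstrin homology domain. Cytohesins are guanine nucleotide exchange factors: their Sec7 domain loads Arf proteins with GTP. Arf6, one of the Arf proteins they act on, controls endocytic recycling and the actin cortex, and in epithelia it is known for its part in the turnover of cell junctions.

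Libraries held between 8422645 and 11438539 counted reads. In the fat-1 EtOH mice 3 and 4 the summed level of 8 large intestine genes was 12241 and 13614 CPM (counts scaled to a library of 1000000 reads), in the WT EtOH mouse 2 it was 5954 CPM, and in the other 13 mice it lay between 259 and 1898 CPM. None of these 8 genes, and none of 6 ileum genes, was at 0 throughout a group; the ileum genes summed to between 648 and 1933 CPM in the fat-1 PF mice 2 and 4 and the fat-1 EtOH mice 3 and 4, and to between 2925 and 9357 CPM in the other 12. Genes of the proximal small intestine summed to between 10753 and 69827 CPM in the PF mice and to between 734 and 9403 CPM in the EtOH mice, and 6 smooth muscle genes to between 906 and 1434 CPM in the PF mice and to between 1859 and 4042 CPM in the EtOH mice. The proximal small intestine and smooth muscle sums thus separated the diets, while the ileum and large intestine sums overlapped between them. Among the PF mice, the fat-1 PF mice 2 and 4 stood apart with 69827 and 67949 CPM of proximal genes, against 10753 to 30626 CPM in the other 6. Results that rest on the 3 EtOH libraries high in large intestine genes, or on the fat-1 PF mice 2 and 4, are given with and without them. In RNA from whole tissue, fewer cells of a type and less RNA per cell cannot be told apart.

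Arl4a (ENSMUSG00000047446) lies on the reverse strand of chromosome 12 at 40005447 to 40038025 of the GRCm38 (mm10) build, with 7701 exon bases. Arl4c (ENSMUSG00000049866) lies on chromosome 1 at 88673125 to 88702221 on the reverse strand, and Arl4d (ENSMUSG00000034936) on chromosome 11 at 101665541 to 101667832 on the forward strand. The 250 bases before each RefSeq start site (GRCm38.p6) are shown because the Arl4 genes are paralogues that behaved differently in these mice, and because RefSeq gives Arl4a a pair of start sites that counts per gene cannot tell apart. Capitals mark GC boxes (GGGCGG on either strand) and CCAAT boxes (CCAAT on either strand), which did not overlap. Each sequence is written 5′ to 3′ on the strand of its gene.

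Arl4a, upstream start site, chr12:40037988-40038237, reverse strand: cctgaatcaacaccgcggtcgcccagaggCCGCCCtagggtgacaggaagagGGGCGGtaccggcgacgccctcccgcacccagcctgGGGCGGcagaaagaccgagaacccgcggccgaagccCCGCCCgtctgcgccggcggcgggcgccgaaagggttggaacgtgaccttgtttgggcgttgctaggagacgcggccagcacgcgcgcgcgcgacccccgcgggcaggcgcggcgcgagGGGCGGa
Arl4a, downstream start site, chr12:40037377-40037626, reverse strand: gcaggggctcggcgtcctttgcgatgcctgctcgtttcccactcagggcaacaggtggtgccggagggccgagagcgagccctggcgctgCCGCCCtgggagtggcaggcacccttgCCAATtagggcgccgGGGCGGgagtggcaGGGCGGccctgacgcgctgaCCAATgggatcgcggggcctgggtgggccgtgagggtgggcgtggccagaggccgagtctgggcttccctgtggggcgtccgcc
Arl4c, chr1:88702192-88702441, reverse strand: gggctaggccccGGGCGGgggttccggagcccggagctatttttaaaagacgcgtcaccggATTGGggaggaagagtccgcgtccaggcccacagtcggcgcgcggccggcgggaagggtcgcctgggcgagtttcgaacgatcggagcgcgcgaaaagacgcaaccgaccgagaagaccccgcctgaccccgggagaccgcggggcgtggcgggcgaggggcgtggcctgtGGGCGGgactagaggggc
Arl4d, chr11:101665291-101665540, forward strand: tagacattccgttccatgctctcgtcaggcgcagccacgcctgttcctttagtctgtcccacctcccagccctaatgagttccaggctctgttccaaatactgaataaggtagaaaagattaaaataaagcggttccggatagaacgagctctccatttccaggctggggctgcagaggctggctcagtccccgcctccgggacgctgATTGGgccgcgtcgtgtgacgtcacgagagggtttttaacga

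Upstream of the Arl4a start sites there were 5 and 3 GC boxes, upstream of Arl4c 2, and upstream of Arl4d 0. CCAAT boxes numbered 0 and 2 at the Arl4a start sites, 1 at Arl4c and 1 at Arl4d. A TATA box (TATAAA on either strand) was found in none of the 4 windows. Over 32851 RefSeq promoter windows of the same length, 32.7% held a GC box, 33.8% a CCAAT box and 12.4% a TATA box. The base composition also set Arl4d apart: its window was 54.4% G and C, close to the median of 52.4% over all windows, whereas the Arl4a windows were 74.8% and 73.2% G and C and the Arl4c window was 71.6%. These matches describe letters in a window only.

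The levels of the 7 transcripts spanned a wide range. Per kilobase of exon, Arf6 had the highest level, 153 ± 33.2 CPM per kilobase (SD, n = 16), and its lowest library, 92.7 CPM per kilobase, lay above the highest library of every other member. Arl4d followed with 23.1 ± 8.31, Cyth2 with 16.5 ± 2.48 and Cyth1 with 15.97 ± 2.56 CPM per kilobase (SD, n = 16 each), and the ranges of these 3 genes overlapped. Arl4a had 7.22 ± 2.70 CPM per kilobase, and its highest library, at 11.1, lay below the lowest Cyth2 library, at 11.9, and the lowest Cyth1 library, at 12.1. Cyth3, at 1.67 ± 0.366, and Arl4c, at 1.08 ± 1.35 CPM per kilobase, were the lowest members, and their ranges overlapped. The raw counts behind these levels ran from 304 to 986 reads per library for Arl4a and from 14 to 389 reads for Arl4c.

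Arl4a transcript was lower in fat-1 mice on either diet. In the WT PF mice Arl4a stood at 67.2, 77.2, 77.4 and 83.1 CPM, and in the fat-1 PF mice at 35.8, 45.3, 54.9 and 37.3 CPM. In the WT EtOH mice it stood at 85.2, 66.4 and 82.8 CPM, and in the fat-1 EtOH mice at 32.6, 36.2, 35.7, 41.2 and 31.2 CPM. No fat-1 mouse reached the level of any WT mouse, and the narrowest gap lay between the fat-1 PF mouse 3, at 54.9 CPM, and the WT EtOH mouse 2, at 66.4 CPM. The mean of the fat-1 PF mice, 43.4 ± 8.78 CPM (SD, n = 4), was 0.569 times that of the WT PF mice, 76.2 ± 6.62 CPM (SD, n = 4). The mean of the fat-1 EtOH mice, 35.4 ± 3.87 CPM (SD, n = 5), was 0.453 times that of the WT EtOH mice, 78.2 ± 10.2 CPM (SD, n = 3).

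The fitted log2 fold changes of Arl4a for these contrasts were -0.82 (SE 0.14) under the PF diet and -1.14 (SE 0.14) under EtOH, and their difference was -0.33 (SE 0.19). The gene was selected on these values, so no test is attached to them. Among the 13811 genes tested, 2 (0.0145%) were lower in every fat-1 mouse than in every WT mouse, and 0 were higher in every fat-1 mouse. The other gene was Raph1, which encodes lamellipodin, a regulator of actin assembly at the leading edge: it lay between 63.8 and 141 CPM in fat-1 mice and between 150 and 182 CPM in WT mice. The fat-1 EtOH mice 3 and 4, which were high in large intestine genes, were at 35.7 and 41.2 CPM, where the choice of the gene keeps them below the WT mice, and without the 3 libraries the log2 fold change under EtOH was -1.33 (SE 0.16). Those 3 include the lowest WT EtOH mouse, at 66.4 CPM, and the highest fat-1 EtOH mouse, at 41.2 CPM. Leaving them out therefore widens the difference. Epithelial genes (8 genes, summed) lay between 15939 and 18949 CPM in the WT mice and between 10433 and 19114 CPM in the fat-1 mice, ranges that overlapped. Between fat-1 and WT mice, 7 of the 8 genes were negative and 1 positive with PF (median log2 fold change -0.14). With EtOH all 8 were negative (median -0.21). The part of epithelial content in the Arl4a values was not tested.

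The diet contrasts of Arl4a were not used to choose it. In WT mice Arl4a was at 78.2 CPM with EtOH and 76.2 CPM without, with a log2 fold change of 0.04 (SE 0.15, edgeR adjusted p = 0.933). In fat-1 mice it was at 35.4 CPM with EtOH and 43.4 CPM without, with a log2 fold change of -0.29 (SE 0.13, edgeR adjusted p = 0.0888), and the groups overlapped (two-sided exact permutation test, p = 0.111, 0.495 after adjustment over the 26 such tests made on the 7 genes). Neither diet difference passed the threshold, an adjusted p of 0.05 or less. Leaving out the fat-1 PF mouse 1 took the fat-1 diet difference to -0.36 with an edgeR adjusted p of 0.0446, the only one of 9 such omissions to pass. The difference was -0.15 without the fat-1 PF mouse 3 (edgeR adjusted p = 0.358), -0.14 with upper-quartile normalization (edgeR adjusted p = 0.419) and -0.35 without the fat-1 PF mice 2 and 4 (edgeR adjusted p = 0.140).

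**Figure D1:**
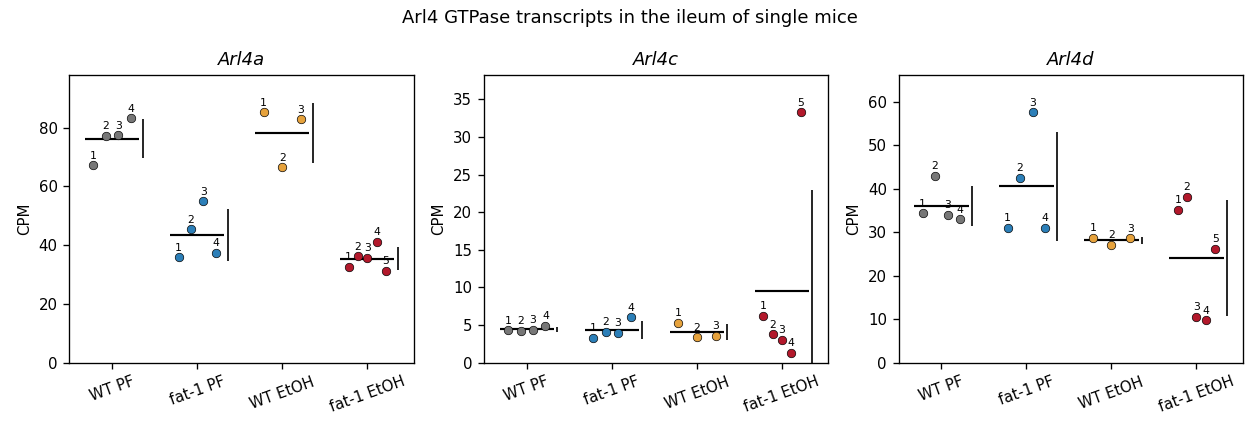
Levels of Arl4a, Arl4c and Arl4d in CPM (vertical axes, from 0) in each mouse, numbered by replicate, over the 4 groups; horizontal lines are means and vertical lines the mean ± SD, cut at 0. Arl4a lies between 31.2 and 54.9 CPM in all fat-1 mice and between 66.4 and 85.2 CPM in all WT mice, Arl4c reaches 33.3 CPM in the fat-1 EtOH mouse 5, and Arl4d falls to 10.6 and 9.72 CPM in the fat-1 EtOH mice 3 and 4.

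The genes beside Arl4a on chromosome 12, a set chosen after its values were known, did not share its separation of the genotypes on both diets. Of the 6 other genes of the table that lie within 1 Mb, 5 were tested. None was lower in every fat-1 mouse than in every WT mouse, which held for 0.0145% of all genes tested. Scin, the nearest, encodes the actin-severing protein scinderin: it lay between 422 and 618 CPM in WT PF and between 205 and 495 CPM in fat-1 PF mice, which overlapped, and between 506 and 602 CPM in WT EtOH and between 153 and 466.5 CPM in fat-1 EtOH mice, which did not. Its log2 fold changes between genotypes were -0.50 (SE 0.36, edgeR adjusted p = 0.602) with PF and -0.78 (SE 0.36, edgeR adjusted p = 0.757) with EtOH. Dock4, an exchange factor for Rac and Rap GTPases, lay between 2.69 and 3.15 CPM in WT EtOH and between 3.40 and 5.65 CPM in fat-1 EtOH mice, again with no overlap under EtOH only and an edgeR adjusted p of 0.757. Over all genes tested, 2.45% had groups that did not overlap between the genotypes under EtOH. Ifrd1, Zfp277 and Immp2l overlapped between genotypes on both diets. None of the 5 genes passed the test in either contrast, where 0.0% (PF) and 0.00724% (EtOH) of all genes tested passed.

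The tested genes whose pattern over the 16 libraries was nearest to that of Arl4a were Acp1, Cdkn1a, Ctdspl, Homer1 and Camsap3, by the root mean square distance between centred log2 CPM. Acp1, a small protein tyrosine phosphatase, was the nearest with a distance of 0.354, and the other 4 lay between 0.404 and 0.412, against a median of 0.640 over all genes tested and a spread of Arl4a about its own mean of 0.533. Unlike Arl4a, each of these 5 genes overlapped between genotypes. Acp1 lay between 19.2 and 29.0 CPM in fat-1 mice and between 24.0 and 39.7 CPM in WT mice. Cdkn1a, the cyclin-dependent kinase inhibitor p21, lay between 188 and 360 CPM in fat-1 mice and between 289 and 372 CPM in WT mice. The points share library, depth and tissue composition, and the distances are given as a description.

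Arl4c, a paralogue that binds filamin A and acts on cell shape, did not follow Arl4a. In the WT PF mice it stood at 4.26, 4.19, 4.33 and 4.88 CPM, and in the fat-1 PF mice at 3.29, 4.07, 3.96 and 6.01 CPM. In the WT EtOH mice it stood at 5.28, 3.36 and 3.53 CPM, and in the fat-1 EtOH mice at 6.18, 3.74, 3.03, 1.25 and 33.3 CPM. Apart from the fat-1 EtOH mouse 5 the groups overlapped, and that mouse alone set the mean of its group, 9.50 ± 13.4 CPM (SD, n = 5) against a median of 3.74 CPM. The log2 fold change between the fat-1 groups was 1.13 (SE 0.70, edgeR adjusted p = 0.217) with that mouse and -0.27 without it, and it was 0.32 with limma voom with sample quality weights (adjusted p = 0.695). Leaving out the 3 libraries high in large intestine genes instead, which leaves mouse 5 as 1 of 3 fat-1 EtOH mice, gave 1.75 with an edgeR adjusted p of 0.0417.

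The fat-1 EtOH mouse 5 also stood apart in genes of B cells. The summed level of 5 B cell genes (Ms4a1, Cd79a, Cd79b, Pax5 and Cr2) was 378 CPM there and between 1.70 and 81.0 CPM in the other 15 mice, and none of the 5 was at 0 throughout a group. In that mouse Cd79b, a chain of the B cell receptor complex, stood at 102 CPM and Pax5, a transcription factor of B cells, at 53.9 CPM. That mouse was also the highest of the 16 in the summed genes of macrophages (301 CPM, at most 230 elsewhere), endothelium (114 CPM, at most 57.9 elsewhere) and fibroblasts (505 CPM, at most 456 elsewhere). Its T cell genes summed to 154.65 CPM, near the top of the range elsewhere, 19.3 to 155.7 CPM. The 5 genes nearest to Arl4c over the 16 libraries were Mndal (distance 0.214), Nckap1l, Vcam1, Gimap6 and Myo1g (distance 0.253), against a median of 0.923 over all genes tested, and all 5 had their highest value in that mouse. Nckap1l, the blood cell subunit of the WAVE complex, stood at 79.7 CPM there and at most at 20.7 CPM elsewhere, and Gimap6, a GTPase of lymphocytes, at 93.5 CPM there and at most at 22.5 CPM elsewhere. The part of B cells or of these other cell types in the Arl4c value was not tested.

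Arl4d (36.03 ± 4.61 CPM in WT PF, SD, n = 4), the third paralogue, varied with diet by less than the tests could call. In the WT PF mice it stood at 34.3, 42.9, 33.99 and 32.9 CPM, and in the WT EtOH mice at 28.7, 27.1 and 28.6 CPM. In the fat-1 PF mice it stood at 30.9, 42.5, 57.5 and 30.9 CPM, and in the fat-1 EtOH mice at 35.2, 38.1, 10.6, 9.72 and 26.2 CPM. The WT groups did not overlap, and the fat-1 groups did, with the lowest values in the fat-1 EtOH mice 3 and 4. In WT mice the log2 fold change was -0.36 (SE 0.40, edgeR adjusted p = 0.725), and the exact permutation test gave p = 0.0571, which is the smallest p that 4 against 3 mice can give. Non-overlapping WT diet groups were found for 24.3% of all genes tested, and among the 7 members for Arl4d only.

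In fat-1 mice the log2 fold change of Arl4d with EtOH was -0.76 (SE 0.35, edgeR adjusted p = 0.101, two-sided exact permutation p = 0.143), which did not pass. Without the 3 libraries high in large intestine genes it was -0.26 (edgeR adjusted p = 0.363), and without the fat-1 EtOH mouse 2 alone it was -0.99 and passed (edgeR adjusted p = 0.0390). With limma voom with sample quality weights it was -0.39 (adjusted p = 0.347). The plot against marker genes shows the same libraries: the lowest Arl4d values fell where the large intestine sum was highest. The part of tissue position in the Arl4d values was not tested.

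**Figure D2:**
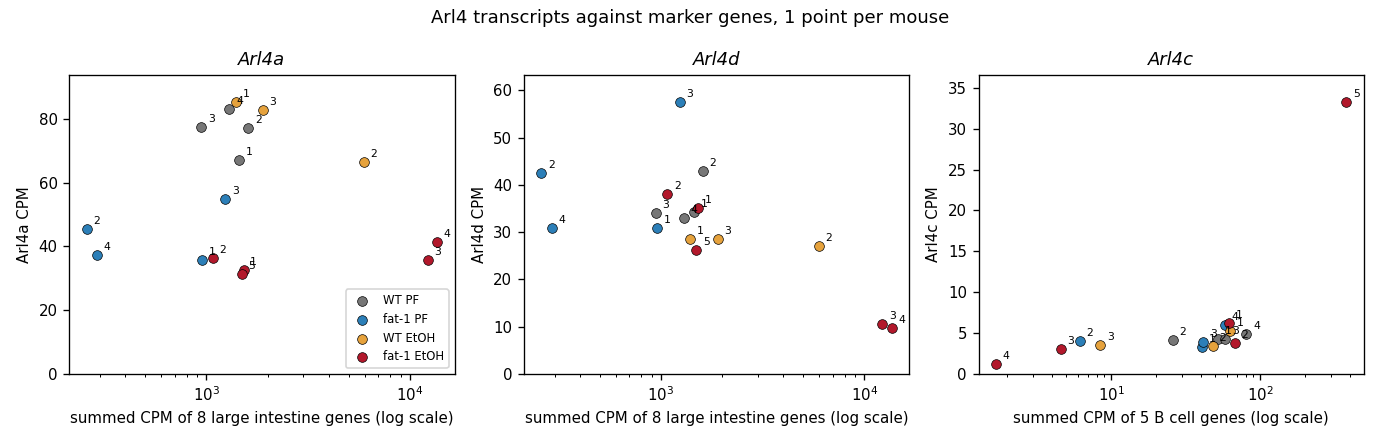
Levels in CPM of Arl4a, Arl4d and Arl4c (vertical axes, from 0) against the summed CPM of 8 large intestine genes (left and middle) or 5 B cell genes (right), on log horizontal axes, with 1 point per mouse numbered by replicate and coloured by group. The fat-1 EtOH mice 3 and 4, at 12241 and 13614 CPM of large intestine genes, have the lowest Arl4d, and the fat-1 EtOH mouse 5 has the highest B cell sum, 378 CPM, and the highest Arl4c.

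Among the cytohesins, Cyth3 was higher in fat-1 EtOH than in fat-1 PF mice. Cyth3 (ENSMUSG00000018001, chromosome 5 at 143622447 to 143710250) encodes the phosphoinositide-binding cytohesin also known as Grp1. It stood at 10.49, 15.3, 13.3 and 11.8 CPM in the fat-1 PF mice and at 15.3, 14.3, 22.9, 22.2 and 19.5 CPM in the fat-1 EtOH mice. It stood at 13.1, 14.8, 12.995 and 17.4 CPM in the WT PF mice and at 16.7, 15.96 and 16.6 CPM in the WT EtOH mice. The fat-1 groups overlapped, since the fat-1 EtOH mice 1 and 2 did not exceed the fat-1 PF mouse 2, and the highest values fell in the fat-1 EtOH mice 3 and 4.

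The fat-1 EtOH mean of Cyth3, 18.8 ± 3.92 CPM (SD, n = 5), was 1.48 times the fat-1 PF mean, 12.7 ± 2.06 CPM (SD, n = 4), with a log2 fold change of 0.57 (SE 0.16, edgeR adjusted p = 0.0126). The two-sided exact permutation test gave p = 0.0476, or 0.495 adjusted over the 26 tests. Without the 3 libraries high in large intestine genes the log2 fold change was 0.39 (edgeR adjusted p = 0.0793), and it no longer passed. Nor did it pass with limma voom with sample quality weights (0.40, adjusted p = 0.0899). Without the fat-1 PF mice 2 and 4 it was 0.67 and passed (edgeR adjusted p = 0.0440). The difference passed without each single mouse of the fat-1 groups, with log2 fold changes from 0.50 to 0.68. In WT mice the log2 fold change was 0.17 (SE 0.18, edgeR adjusted p = 0.692), and 0.27 without the WT PF mouse 4 (edgeR adjusted p = 0.499). The difference between the genotypes in the response to diet, 0.40 (SE 0.24), did not pass the test (edgeR adjusted p = 0.614), and it was 0.20 without the 3 libraries and 0.15 with limma voom.

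Cyth1 (ENSMUSG00000017132, chromosome 11 at 118132019 to 118248592), a cytohesin known from integrin adhesion of leukocytes, stood at 69.8, 65.8, 60.1 and 67.8 CPM in WT PF and at 47.4, 60.9 and 48.1 CPM in WT EtOH mice. In the fat-1 PF mice it ran from 63.3 to 87.3 CPM and in the fat-1 EtOH mice from 52.5 to 71.5 CPM. Both EtOH groups were lower on average and both overlapped their PF group, by the WT EtOH mouse 2 at 60.9 CPM in the case of WT. The log2 fold change was -0.34 (SE 0.14, edgeR adjusted p = 0.309) in WT and -0.25 (SE 0.12, edgeR adjusted p = 0.124) in fat-1 mice. The fat-1 difference was -0.12 without the 3 libraries high in large intestine genes (edgeR adjusted p = 0.479), -0.11 without the fat-1 PF mouse 2 (edgeR adjusted p = 0.472), -0.11 without the fat-1 PF mice 2 and 4 (edgeR adjusted p = 0.588) and -0.097 with upper-quartile normalization (edgeR adjusted p = 0.522). Neither passed the edgeR test, whereas limma voom with sample quality weights gave -0.40 with an adjusted p of 0.0116 in WT mice, in a fit that called 20.3% of all genes tested.

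Cyth2 (ENSMUSG00000003269, chromosome 7 at 45806637 to 45814581), the cytohesin also called ARNO, ran in WT mice from 54.2 to 64.5 CPM with PF and from 54.2 to 61.0 CPM with EtOH. In fat-1 mice it ran from 52.6 to 72.0 CPM with PF and stood at 53.3, 64.1, 41.8, 41.0 and 48.4 CPM with EtOH, with its lowest values again in the mice 3 and 4. The log2 fold change was -0.04 (SE 0.15, edgeR adjusted p = 0.917) in WT and -0.33 (SE 0.13, edgeR adjusted p = 0.0604) in fat-1 mice, and the latter was -0.14 without the 3 libraries high in large intestine genes, -0.18 with upper-quartile normalization and -0.20 with limma voom. Leaving out the fat-1 EtOH mouse 2 or the fat-1 PF mouse 1 brought the fat-1 difference past the threshold, and the lowest edgeR adjusted p was then 0.00968. A gene model not yet established by experiment (Gm45444) on the opposite strand overlaps 11.1% of the Cyth2 exon bases, and the strand setting of the counting was not stated.

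Arf6 (ENSMUSG00000044147, chromosome 12 at 69372150 to 69373783) stood at 231, 264, 314 and 304 CPM in WT PF and at 228, 239 and 239 CPM in WT EtOH mice. It stood at 235, 198, 314 and 218 CPM in fat-1 PF and at 231, 265, 143, 142 and 201 CPM in fat-1 EtOH mice. All 4 groups overlapped with their neighbours by genotype and by diet, and the lowest values again fell in the fat-1 EtOH mice 3 and 4. The log2 fold changes with EtOH were -0.24 (SE 0.21, edgeR adjusted p = 0.638) in WT and -0.30 (SE 0.19, edgeR adjusted p = 0.220) in fat-1 mice, and neither passed. The fat-1 value was -0.03 without the 3 libraries high in large intestine genes, -0.13 without the fat-1 PF mouse 3, -0.19 without the fat-1 EtOH mouse 3 or the fat-1 EtOH mouse 4, and -0.48 without the fat-1 PF mice 2 and 4. It was -0.16 with upper-quartile normalization and -0.075 with limma voom, and in none of these did it pass. The gene Gm9887 on the opposite strand shares 13.6% of the Arf6 exon bases, so part of either count may belong to the other.

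**Figure D3:**
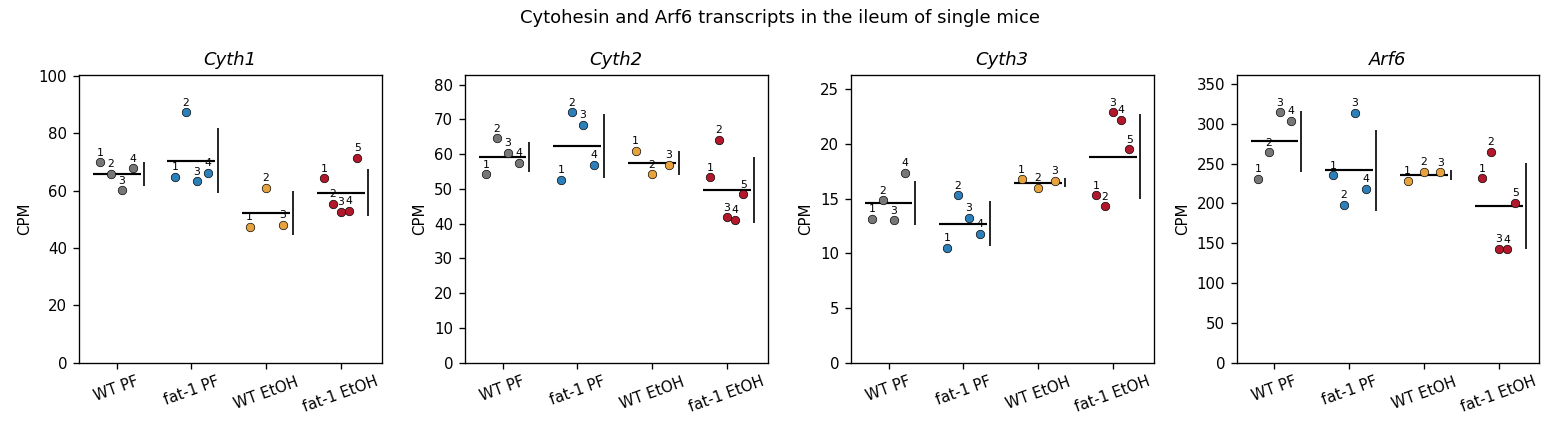
Levels of Cyth1, Cyth2, Cyth3 and Arf6 in CPM (vertical axes, from 0) in each mouse, numbered by replicate, over the 4 groups, with means (horizontal lines) and the mean ± SD (vertical lines). The fat-1 EtOH mice 3 and 4 have the highest Cyth3, 22.9 and 22.2 CPM, and the lowest Cyth2 and Arf6, 41.8 and 41.0 CPM and 143 and 142 CPM.

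Counted over the 7 genes, the contrast of fat-1 EtOH with fat-1 PF had 1 member past the threshold (Cyth3, higher), in a contrast in which 37.4% of all genes tested passed, 18.7% higher and 18.8% lower, and 28.5% to 39.4% when single mice of the fat-1 groups were left out. In it, 4 of 7 members had an unadjusted p under 0.05, against 47.9% of all genes tested, 5 members were negative and 2 positive, and 0 of 7 had groups that did not overlap, against 24.0% of all genes tested. In the contrast of WT EtOH with WT PF 0 of 7 members passed in edgeR and 1 (Cyth1) had an unadjusted p under 0.05, where 0.0796% of all genes passed and 14.1% had an unadjusted p under 0.05. Without the fat-1 PF mice 2 and 4, 1 member (Cyth3) passed for diet in fat-1 mice, where 13.9% of all genes then passed. In that fit 0 members passed between fat-1 PF and WT PF, where 0.0% of all genes did, and the log2 fold change of Arl4a in this genotype contrast was -0.76. Arl4a aside, 0 of 6 members passed between fat-1 PF and WT PF, where 0.0% of all genes passed, and 0 of 6 passed between fat-1 EtOH and WT EtOH, where 0.00724% passed. The same 6 had no unadjusted p under 0.05 in either genotype contrast by edgeR, and DESeq2 and limma voom called 0 of them too. Their log2 fold changes ran from -0.20 (Arf6, SE 0.20) to 0.17 (Arl4d, SE 0.37) between fat-1 PF and WT PF, and from -0.26 (Arf6, SE 0.20) to 1.22 (Arl4c, SE 0.77) between fat-1 EtOH and WT EtOH. The Arl4c value rested on the fat-1 EtOH mouse 5 and was -0.20 without it. For the interaction of genotype and diet 0 of 6 passed, with 0.0% of all genes. The diet contrasts share no mice, but each genotype contrast shares its groups with them.

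**Figure D4:**
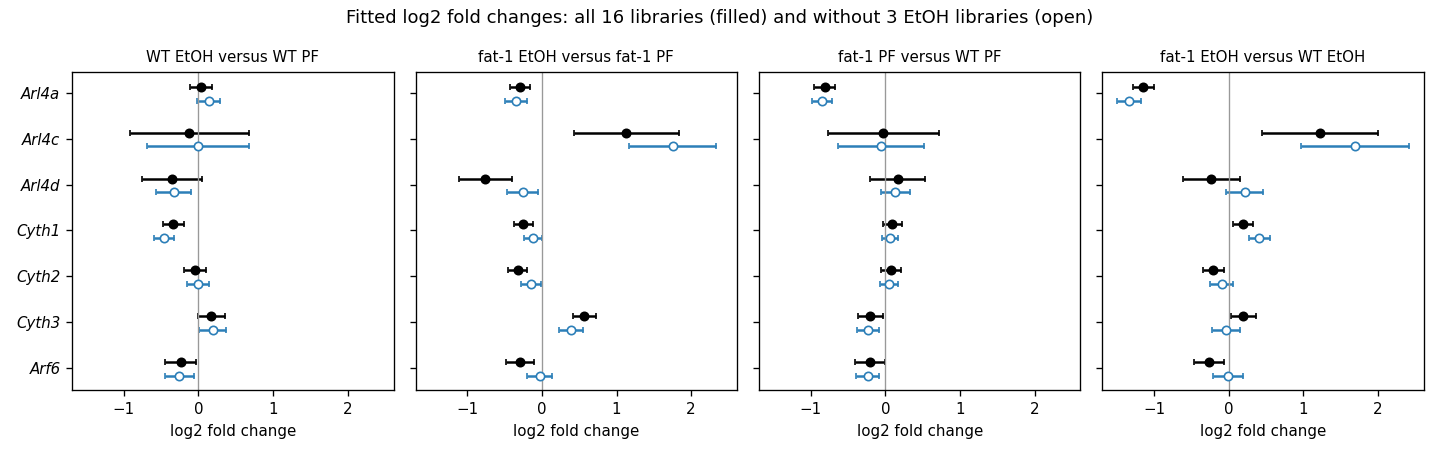
Fitted log2 fold changes (horizontal axes) with standard errors of the 7 members in the 4 contrasts, over all 16 libraries (filled) and without the 3 EtOH libraries high in large intestine genes (open). Arl4a lies at -0.82 and -1.14 between genotypes and near 0 for diet in WT mice, and Arl4c has the widest errors.

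The wider pathway was described from 5 lists with 84 genes in the table, of which 82 were tested. Between fat-1 EtOH and fat-1 PF mice 36 of the 82 passed (43.9%), 13 higher and 23 lower, where 37.4% of all genes passed. The median log2 fold change of the 82 genes was -0.01, against 0.05 over all genes tested, and it turned sign with upper-quartile normalization (0.14, against 0.20 over all genes) and without the fat-1 PF mice 2 and 4 (0.01, against 0.06). Of the 36 genes, 28 (77.8%) had groups that did not overlap, against 61.1% of all genes that passed in this contrast. All 36 had the same sign without the 3 libraries high in large intestine genes, and 26 still passed. In that fit 33 pathway genes passed, 15 higher and 18 lower, where 29.7% of all genes did. With upper-quartile normalization, 69.0% of all passing genes were higher in this contrast, against 49.9% with the trimmed mean of M values, and of the pathway genes 39 passed, 23 higher and 16 lower. Under that normalization 41.0% of all genes passed, and of the 36 genes 29 still passed and all 36 kept their sign. Without the fat-1 PF mice 2 and 4 15 of the 82 genes passed, 8 higher and 7 lower, in a contrast in which 13.9% of all genes then passed; Iqsec3, an exchange factor tested only in that fit, also passed. Of the 36 genes 14 still passed and all 36 had the same sign. By list, these were 6 of the 11 GTPases, 2 of the 5 exchange factors, 1 of the 7 GTPase-activating proteins (Asap3), 3 of the 8 effectors and partners and 2 of the 5 scaffolds that passed over all libraries. Of the genes named below, Arl14, Iqsec1, Iqsec2, Psd3, Adap1, Rab11fip3, Inava, Frmd4b and Ccdc120 did not pass without those mice. In the other 3 contrasts 0 of 82 pathway genes passed by edgeR over all libraries. For diet in WT mice the count depended on the test: 17 (20.73%) passed with limma voom, where 20.3% of all genes did, 6 (7.407%) with edgeR on the WT groups only, where 8.32% did, and 1 with DESeq2, where 1.86% did. By edgeR over all libraries the 3 contrasts had 10 (12.2%, diet in WT), 9 (10.98%, genotype with PF) and 8 (9.76%, genotype with EtOH) at an unadjusted p under 0.05. The shares of all genes tested at that level were 14.1%, 12.7% and 4.86%.

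Of the 24 tested small GTPases of the Arf, Arl and Sar family, 8 passed as lower and 3 as higher with EtOH in fat-1 mice, with a median log2 fold change of -0.07 over the list, and 10 of these 11 passed without the 3 libraries high in large intestine genes. The 11 were 45.8% of the tested list, against 37.4% of all genes tested. Arl14, a GTPase of vesicle transport, fell from a range of 21.8 to 55.9 CPM in fat-1 PF to a range of 1.80 to 18.4 CPM, with a log2 fold change of -2.25 (SE 0.67, edgeR adjusted p = 0.0173), and -3.81 without the 3 libraries. Sar1b, named after its values were seen, drives COPII vesicle formation and is needed for chylomicron export, and it also fell, from 278 to 112 CPM in the mean (log2 fold change -1.32, SE 0.17, edgeR adjusted p = 0.000248). Genes of the proximal small intestine, a list that includes the lipid export genes Apob and Mttp, passed as lower in the same comparison for 8 of 10 members, and their part in the Sar1b value was not tested. Arl6, which brings the BBSome to cilia, had the largest log2 fold change of the 3 that passed as higher, from 1.39 to 2.58 CPM (0.89, SE 0.23, edgeR adjusted p = 0.00749). Of the Arf genes of this list, named after their values were seen, Arf1, Arf4 and Arf5 fell by 0.70, 0.85 and 1.09 on the log2 scale, while Arf2 (log2 fold change -0.08, edgeR adjusted p = 0.681) and Arf3 (0.06, edgeR adjusted p = 0.709) did not pass.

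Exchange factors for Arf proteins, a list that held the cytohesin Cyth4 but not Cyth1, Cyth2 and Cyth3, passed as higher in 4 and as lower in 1 of 11 tested genes, with a median log2 fold change of 0.505, and 4 of these 5 passed without the 3 libraries. The 5 were 45.5% of the tested list, against 37.4% of all genes tested. Iqsec1, an Arf6 exchange factor of integrin recycling, rose from a range of 10.7 to 13.9 CPM to a range of 13.8 to 41.3 CPM (log2 fold change 1.26, SE 0.30, edgeR adjusted p = 0.00524). The other genes that rose were Iqsec2, Psd3 and Psd4, by 0.51, 0.95 and 0.95 on the log2 scale, and Psd3 and Psd4 also encode exchange factors of Arf6. Without the 3 libraries Psd3 no longer passed, though its log2 fold change was no smaller (1.01, edgeR adjusted p = 0.0755), and Psd4 had a log2 fold change of 0.58. Fbxo8, an F-box protein with a Sec7 domain, fell by 0.71 on the log2 scale (SE 0.15, edgeR adjusted p = 0.00238).

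GTPase-activating proteins, which switch Arf proteins off, passed as higher in 1 and as lower in 6 of 21 tested genes, with a median log2 fold change of -0.02. That is 33.3% of the tested list, below the 37.4% of all genes tested. Asap3 was the gene that rose, from 1.51 to 3.43 CPM (log2 fold change 1.17, SE 0.28, edgeR adjusted p = 0.00515). Adap1, which acts on Arf6 and binds phosphoinositides, fell most of those that passed on the log2 scale, from 320 to 167 CPM (log2 fold change -0.94, SE 0.23, edgeR adjusted p = 0.00653). Of these 7 genes, 4 passed without the 3 libraries high in large intestine genes, and Adap1 had a log2 fold change of -0.56.

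Effectors and partners of Arl4 proteins and Arf6 passed as higher in 1 and as lower in 7 of 18 tested genes, with a median log2 fold change of -0.12, and 5 of these 8 passed without the 3 libraries. The 8 were 44.4% of the tested list, against 37.4% of all genes tested. Flna, the actin cross-linker filamin A, rose from a range of 153 to 230 CPM to a range of 399 to 574 CPM (log2 fold change 1.25, SE 0.17, edgeR adjusted p = 0.000267). Flna is abundant in smooth muscle, and all 6 smooth muscle genes rose in the same comparison with a median log2 fold change of 1.497; the part of muscle in the Flna value was not tested. Rab11fip3, which binds Arf6 on recycling endosomes, fell most of those that passed on the log2 scale, from 159 to 70.1 CPM (log2 fold change -1.18, SE 0.36, edgeR adjusted p = 0.0189), and had a log2 fold change of -0.66 without the 3 libraries.

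Scaffolds that bind cytohesins passed as higher in 4 and as lower in 1 of 8 tested genes, with a median log2 fold change of 0.70. That is 62.5% of a short list, against 37.4% of all genes tested. Grasp (also called tamalin) rose from a range of 1.48 to 2.45 CPM to a range of 2.89 to 4.19 CPM (log2 fold change 0.88, SE 0.21, edgeR adjusted p = 0.00598). Inava, an epithelial partner of Cyth2, rose by 0.67, and Frmd4a and Frmd4b, which tie cytohesins to cell polarity proteins, by 0.73 and 0.76 on the log2 scale. Ccdc120, the gene that fell, had a log2 fold change of -0.75 (SE 0.16, edgeR adjusted p = 0.00307). Without the 3 libraries high in large intestine genes 3 of these 5 genes passed, and Inava (log2 fold change 0.65, edgeR adjusted p = 0.124) and Frmd4b (log2 fold change 0.35, edgeR adjusted p = 0.0600) did not. The Inava value was thus close to that over all libraries, and the Frmd4b value was smaller.

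**Figure D5:**
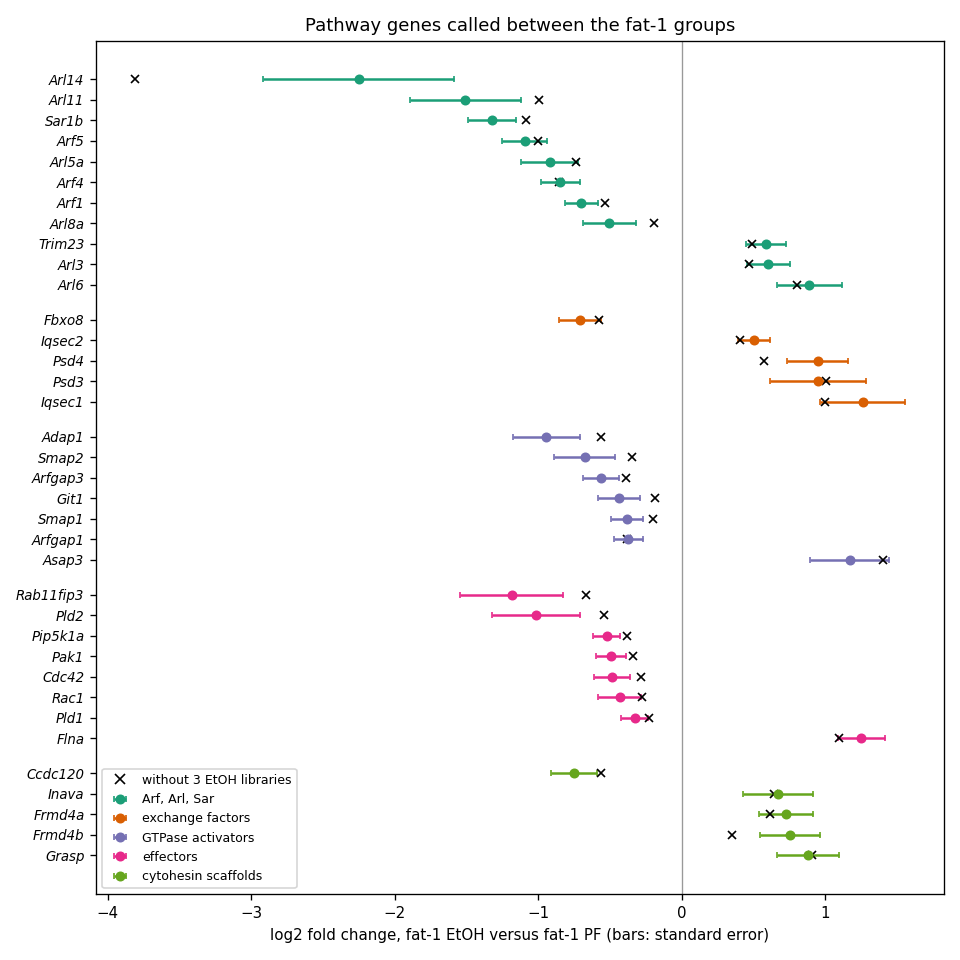
Log2 fold changes (horizontal axis) between fat-1 EtOH and fat-1 PF mice, with standard errors, of the 36 pathway genes that passed the test, coloured by list; crosses are the values without the 3 EtOH libraries high in large intestine genes. Arl14 (-2.25) lies lowest and Iqsec1 (1.26) highest, and every cross lies on the same side of 0 as its point.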

How the data were processed

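The authors sequenced stranded poly-A libraries of the mouse terminal ileum in paired reads of 75 bases, aligned them to mm10 with tophat2 guided by Ensembl transcripts, and deposited raw read counts per gene. The counting tool's strand setting is not given in the sources used here. The counts were fitted with edgeR 4.0.16 (quasi-likelihood test, robust; TMM factors; filterByExpr over the 4 groups) in 1 model of all 16 libraries with 1 mean per group; p-values were adjusted by Benjamini-Hochberg over 13811 genes and called at 0.05 or less. CPM are counts over TMM-adjusted library sizes. Single members were compared by two-sided exact permutation tests of log2(CPM + 0.5). Alternatives used DESeq2 1.42.0, limma 3.58.1 (voom), other scalings and filters, the replicate number as a block, and omission of mice. Members and gene lists were chosen with earlier results of these data known. One marker gene is not reported here and was left out of its list. Named were all members, of each pathway list the called genes with the largest positive and negative change (all if 4 or fewer were called), and the 5 genes nearest to Arl4a and Arl4c. Outside this rule, Sar1b, Arf1 to Arf5, Iqsec2, Iqsec3, Psd3, Psd4, Inava, Frmd4a, Frmd4b, Raph1 and the neighbours of Arl4a were named after their values were seen. The fits were tested on simulated counts in which 200 genes were changed. Over the 4 contrasts, 55 to 61 of the 106 genes changed 2-fold were called, and 81 to 84 of the 94 changed 4-fold. Of the unchanged genes 5 to 7 were called. A count of 0 allows at most 3 counts, or 0.246 to 0.421 CPM by library, for counting error only; no member was at 0. The labels name separate mice and no sequencing batch; the library numbers 1 to 8 are PF and 9 to 16 EtOH, so library order and diet cannot be told apart.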

Additional observations from a re-analysis of the deposited data

Results flagged for a closer look

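In 21 combinations of the 7 genes with the groups of 4 or 5 mice, a mouse that stood far from its group by Dixon's criterion (the gap to the nearest mouse over the range of the group) was found in 3, and chance gives such a finding in about 1 of 20 groups. Arl4c stood at 33.27 CPM in the fat-1 EtOH mouse 5, which also had the highest sum of B cell genes. Arl4d stood at 42.89 CPM in the WT PF mouse 2, above the 32.9 to 34.3 CPM of the other WT PF mice. Cyth1 stood at 87.31 CPM in the fat-1 PF mouse 2, above the 63.3 to 66.2 CPM of the other fat-1 PF mice, and that mouse also had the lowest sum of large intestine genes, 259 CPM.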

How the results depend on the processing

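Among the recomputed log2 fold changes of members, 623 kept their direction and, where a test was made, their side of the threshold. Another 32 turned sign, 7 came to pass, 2 no longer passed and 1 (Arl4a between genotypes with EtOH, without the 3 libraries, -1.33) moved by more than the spread between replicates. The Arl4a values between genotypes and for the interaction are in this tally. They carry no test, since the gene was chosen by them. For diet in fat-1 mice, 0 members passed with limma voom, where 26.4% of all genes did. With the replicate block 2 passed (Cyth3 and Cyth1, the latter at -0.32 with an edgeR adjusted p of 0.0444), where 34.4% of all genes did. When single mice were left out 1 to 3 passed, where 28.5% to 39.4% of all genes did: 3 without the fat-1 PF mouse 1 or the fat-1 EtOH mouse 2. Without the 3 libraries, where 29.7% of all genes passed, 1 member passed as in the main fit, but it was Arl4c in place of Cyth3. For diet in WT mice, 1 member (Cyth1) passed with limma voom, where 20.3% of all genes did. Pathway genes that passed for diet in WT mice numbered 17 with limma voom, 6 with only the groups compared, 1 with DESeq2 and 1 with the replicate block, where 20.3%, 8.32%, 1.86% and 0.13% of all genes passed. For genotype with PF, 1 passed with DESeq2 (1.37% of all genes), and 0 to 1 when single mice were left out (1 without the fat-1 PF mouse 1, with 0.711% of all genes). Omission of the fat-1 PF mice 2 and 4, chosen after seeing the data, took the pathway genes that passed for diet in fat-1 mice from 36 to 16 (1 of them, Iqsec3, not tested over all libraries). The share of all genes that passed went from 37.4% to 13.9%. This omission took 2 of 4 mice from 1 group, and Cyth1 then gave -0.048 for genotype with PF.

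Changed signs among single members, none of which passed, were as follows. With the replicate block, where number 5 holds only the fat-1 EtOH mouse 5, Arl4c gave -0.35 for diet in fat-1 mice, -0.19 for genotype with EtOH and -0.17 for the interaction. With limma voom, Arl4c gave 0.0028 for diet in WT mice and 0.028 for genotype with PF, Arl4d 0.015 and Cyth3 -0.013 for genotype with EtOH, and Arf6 0.14 for the interaction. With upper-quartile normalization, which moved the median of all genes for diet in fat-1 mice to 0.20, Cyth2 gave 0.0065 for diet in WT mice and Arf6 0.036 for the interaction. Without the 3 libraries, Arl4d gave 0.21 and Cyth3 -0.032 for genotype with EtOH, and Arl4d 0.076 and Arf6 0.23 for the interaction. The cause of these changes was not tested.

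When single mice were left out, the log2 fold changes that turned sign ranged, for diet in WT mice, from -0.030 to 0.14 (Arl4a) and from -0.091 to 0.0065 (Cyth2); for diet in fat-1 mice, from -0.27 to 1.42 (Arl4c); for genotype with PF, from -0.24 to 0.077 (Arl4c), from -0.061 to 0.27 (Arl4d), from -0.036 to 0.13 (Cyth1) and from -0.010 to 0.14 (Cyth2); for genotype with EtOH, from -0.20 to 1.49 (Arl4c); and for the interaction, from -0.16 to 1.53 (Arl4c) and from -0.19 to 0.099 (Arf6). Replicate numbers did not pair mice: the mean correlation of deviations was -0.022 over 21 pairs with the same number and 0.0070 over 74 other pairs. Groups of 3 to 5 mice limit the precision of every contrast.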
